A study of Mus musculus with 18 samples.

Results

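The interaction of Ndp loss with Ptch heterozygosity was examined in GNPs, the granule neuron progenitors of the cerebellum that can give rise to hedgehog-driven medulloblastoma. It asks whether losing Ndp changed a gene by the same amount when 1 copy of Ptch1 was also missing. All 16 GNP arrays of the 18 arrays were used, grouped by their titles into WT, NdpKO, Ptch+/- and NdpKO;Ptch+/- with 4 arrays each. For each probe the interaction value is the difference NdpKO;Ptch+/- minus Ptch+/-, less the difference NdpKO minus WT, on the log2 scale. It equals the distance of the NdpKO;Ptch+/- mean from the additive value, which is NdpKO plus Ptch+/- minus WT. Of 45281 probes, the 10220 whose 4 group means all lay at or above level 5 are described, because array background lies near 4.1 and a group held at background could by itself give an interaction. Levels are log2 intensities throughout, and a level of 1 probe is not compared with that of another.

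All GNPs came from mice at postnatal day 6. WT and Ptch+/- mice carried the strain label C57Bl/6 and NdpKO mice the label mixed, whereas 3 of the 4 NdpKO;Ptch+/- arrays had no strain label. In the labels strain and Ndp genotype therefore cannot be told apart, although the submitters' design note states that compound mutants were set against Ptch+/- or WT controls of 1 breeding cohort. That note does not mention NdpKO GNPs. The study's methods state that, in every experiment, controls for compound mutants were single mutants or wild-type mice of the same cohort. The Ndp allele is a lacZ insertion that every cell of the animal carries, and since Ndp is X-linked the compound mutants were Ndp-/y males. The Ptch allele is a germline heterozygous mutation. GNPs were enriched by density gradient and pre-plating and not by a sorting marker, so other cerebellar cells could remain. In bulk RNA, fewer cells of a type and less RNA per cell cannot be told apart.

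Sonic hedgehog drives GNPs to divide, and Patched1, the product of Ptch1, restrains the pathway by holding Smoothened inactive until the ligand binds. Norrin, the product of Ndp, is a secreted ligand of the Frizzled4 receptor that acts mainly on endothelial cells, where it supports vessel growth and the blood-brain barrier through beta-catenin. As GNPs leave the cell cycle they become granule neurons and switch on adhesion, channel and synaptic genes.

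Mean Ptch1 levels (± SD, n = 4) were 8.63 ± 0.06 for WT, 8.80 ± 0.15 for NdpKO, 7.83 ± 0.14 for Ptch+/- and 8.06 ± 0.19 for NdpKO;Ptch+/- GNPs. The interaction of Ptch1 was 0.07 ± 0.14 (SE, limma adjusted p = 0.895). With Ptch heterozygosity its level was lower in the WT background (-0.80, limma adjusted p = 0.00402). In the NdpKO background the difference was -0.73 and was not called (limma adjusted p = 0.0777). The Ndp probe lay at 4.10 to 4.13 on every array, background in WT as well, and checks nothing. Of 8 GNP markers, 6 lay at or above level 5 in all groups (Zic1, Zic2, Barhl1, Neurod1, Meis1 and Cxcr4) and the probes for Atoh1 and Pax6 lay below it. Markers of astrocytes and Bergmann glia (6 of 6) and of endothelium (5 of 6) were also at or above level 5, as were 3 of 4 oligodendrocyte markers on the array.

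The groups were not uniform. On the first principal component the WT arrays and NdpKO;Ptch+/- arrays 2 to 4 had negative scores and the Ptch+/- arrays and NdpKO arrays 1 to 3 positive scores, whereas NdpKO array 4 (-15.2) and NdpKO;Ptch+/- array 1 (16.6) lay on the opposite side from their groups. NdpKO;Ptch+/- array 2 is labelled Ndp knockout in its source and genotype fields. Its level of Prm1, a transcript seen only in arrays titled Ptch, was 9.92, against 9.79 to 10.66 in the other NdpKO;Ptch+/- arrays and 4.11 to 4.12 in NdpKO arrays. Its Ptch1 level was 7.80, against 7.63 to 7.94 in Ptch+/- and 8.65 to 8.97 in NdpKO arrays. In both transcripts this array lay with the arrays titled Ptch, as its own title has it. Xist, a member of the sex-linked list, was at 10.02 on Ptch+/- array 3 and at background on the other 15 arrays. According to the study's methods, NdpKO and NdpKO;Ptch+/- mice were males, and the other controls came from both sexes.

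The interaction was called (limma, Benjamini-Hochberg adjusted p below 0.05 over all probes) for 224 probes, 0.495% of all. Of the probes at or above level 5, 157 were called (1.54%), for 138 genes with a symbol. In 67 of them (0.656%) the NdpKO;Ptch+/- level was higher than the additive value, and in 90 (0.881%) it was lower. An unadjusted p below 0.05 was reached by 3187 of the 10220 probes (31.2%), the share against which such counts of list members are to be read. Without NdpKO array 4 the 157 became 895, without NdpKO;Ptch+/- array 1 they became 907, and without both they became 1851. Without WT array 4 there were 133, and leaving out any 1 of the other 13 arrays left 12 (Ptch+/- array 1) to 51. When the array with disagreeing labels was counted as NdpKO, limma called 0 of 10227 probes (lowest adjusted p = 0.0594), with 2284 (22.3%, down from 31.2%) at an unadjusted p below 0.05. All 157 then kept their sign and an unadjusted p below 0.05, with a median of 0.909 of their former size. They had been chosen for small p-values on the same arrays, which favours this outcome, so it is no separate support for them. The plot of calls by setting shows these counts.

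**Figure D1:**
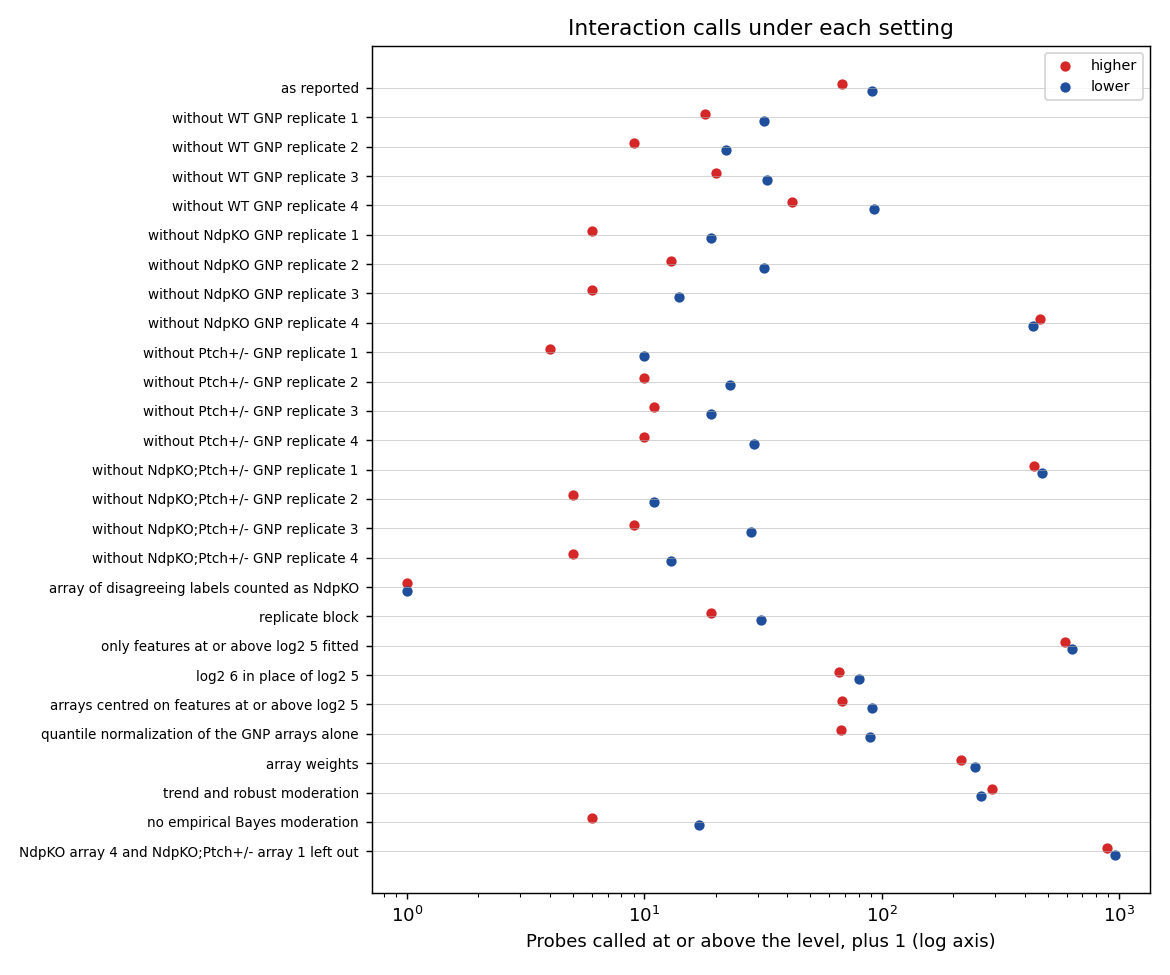
Number of probes at or above level 5 called for the interaction in each direction, plus 1, on a log axis, as reported and under each alternative setting. The count lies between 0 and 1851 in all, with 157 as reported, and is highest where NdpKO array 4 and NdpKO;Ptch+/- array 1 are both left out (1851), followed by the fit of only probes at or above level 5 (1224).

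Medians of the called probes describe the arrangement of the groups, which the choice of large interactions in part fixes. In the 67 higher probes the median of NdpKO minus WT was -0.48, that of Ptch+/- minus WT was -0.69, and that of NdpKO;Ptch+/- minus Ptch+/- was 0.42. In the 90 lower probes the same medians were 0.52, 0.62 and -0.37. The effects of Ndp loss in the 2 backgrounds had opposite signs in all 157 called probes, a count that the choice of large interactions favours. Over all 10220 probes the signs were opposite in 66.6%, and the effects correlated with r = -0.46 (Spearman rho = -0.46, n = 10220 probes on the same 16 arrays, a description since probes are not replicates).

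WT and NdpKO;Ptch+/- means both lay on 1 side of the NdpKO and Ptch+/- means in 66 of the 67 higher and 86 of the 90 lower probes, an arrangement that a large interaction favours and that 54.1% of all 10220 probes had. The 8 WT and NdpKO;Ptch+/- arrays did not overlap the 8 NdpKO and Ptch+/- arrays in 4 of the higher and 13 of the lower probes, and in 24 of all 10220 probes (0.235%). The medians of NdpKO;Ptch+/- minus WT, -0.22 for the higher and 0.26 for the lower probes, kept the direction of the single genotypes at a smaller size.

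**Figure D2:**
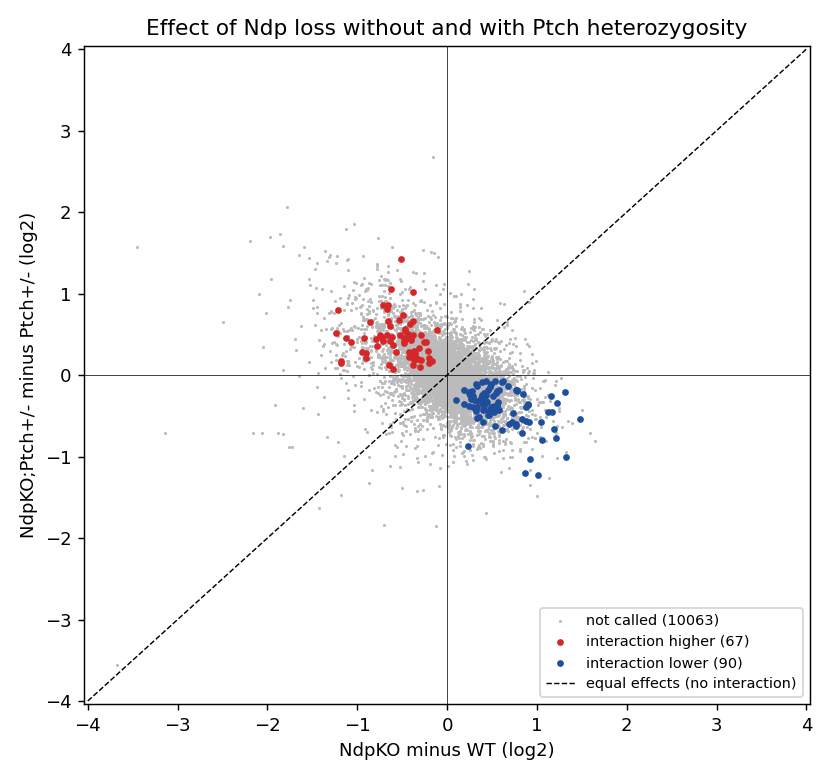
Effect of Ndp loss on each of 10220 probes, in log2, without (NdpKO minus WT, horizontal) and with (NdpKO;Ptch+/- minus Ptch+/-, vertical) Ptch heterozygosity. Points on the dashed line have no interaction. The 67 higher probes lie toward the upper left and the 90 lower probes toward the lower right.

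Taken by itself, Ndp loss was called for 93 of these probes against WT (0.91%) and for 2 in the Ptch+/- background (0.0196%). Of the called interactions, 18 of 67 and 34 of 90 were also called for NdpKO against WT and 0 of 157 for NdpKO;Ptch+/- against Ptch+/-. Ptch heterozygosity in the WT background was called for 60 of the 67 and 74 of the 90, against 347 of all 10220 probes (3.4%). These comparisons share the WT and Ptch+/- arrays with the interaction and are not independent of it.

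The DNA before the start of called genes is shown for a pair of named genes of each direction. Each holds a searched motif in the 250 bases before its outermost start (RefSeq, GRCm38.p6). The pairs were chosen by size of the interaction, with Cables1 and Celf4 not considered. Cables1 had a larger interaction than either gene of the higher pair shown. Capitals mark the motif. The Jph4 window is at chr14:55116936-55117185 and the Chrnb2 window at chr3:89764633-89764882, both on the minus strand with a match to the hypoxia element ACGTG. The Rnase4 window at chr14:51090827-51091076 on the plus strand holds 2 matches to the heat shock element GAANNTTC, and the Lmcd1 window at chr6:112273508-112273757 on the plus strand 1 match to the cAMP response element TGACGTCA.
Jph4: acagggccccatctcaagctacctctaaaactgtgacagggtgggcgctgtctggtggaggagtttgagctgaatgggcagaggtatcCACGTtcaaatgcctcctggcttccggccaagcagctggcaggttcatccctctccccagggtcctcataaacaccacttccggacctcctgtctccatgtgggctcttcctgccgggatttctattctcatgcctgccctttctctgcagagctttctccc
Chrnb2: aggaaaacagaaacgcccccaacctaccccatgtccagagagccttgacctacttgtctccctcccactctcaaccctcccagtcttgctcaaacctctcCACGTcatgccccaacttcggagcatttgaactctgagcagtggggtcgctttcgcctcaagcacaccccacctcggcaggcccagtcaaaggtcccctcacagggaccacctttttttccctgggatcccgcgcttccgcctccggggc
Rnase4: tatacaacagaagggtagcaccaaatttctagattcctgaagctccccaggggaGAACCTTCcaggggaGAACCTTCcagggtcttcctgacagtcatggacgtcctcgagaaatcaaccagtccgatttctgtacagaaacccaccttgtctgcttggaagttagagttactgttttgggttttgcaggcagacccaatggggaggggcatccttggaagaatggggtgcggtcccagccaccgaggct
Lmcd1: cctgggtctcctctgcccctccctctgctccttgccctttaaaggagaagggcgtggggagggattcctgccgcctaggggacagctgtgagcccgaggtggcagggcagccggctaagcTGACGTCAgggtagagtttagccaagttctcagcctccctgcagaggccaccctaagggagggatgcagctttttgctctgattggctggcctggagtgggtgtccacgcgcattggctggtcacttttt

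Windows were found for 48 of 58 higher and 64 of 80 lower genes, some with several starts, giving 59 and 95 windows of 32851 in all. On either strand GAANNTTC was in 11.9% of windows of higher genes, 2.11% of those of lower genes and 6.69% of all windows. ACGTG was in 15.3%, 17.9% and 16.6%, and CACGTG, the E-box, which contains it, in 5.08%, 7.37% and 6.02%. TGACGTCA was in 5.08%, 0% and 1.55%, which is 3 windows of 2 higher genes. The amino acid response element TGATGNAA was in 1.69%, 1.05% and 3.45%, and the Gli site GACCACCCA was in 0% of both sets and 0.225% of all windows. These are shares of letters in a short window, and no match here says nothing about a factor.

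Jph4 and Chrnb2 had the lowest interaction values. Jph4, which encodes a junctophilin that ties the neuronal plasma membrane to the endoplasmic reticulum, was at 5.18, 5.50, 4.74 and 4.96 in WT and at 6.95, 5.83, 6.72 and 6.18 in NdpKO arrays. It was at 6.58, 6.89, 6.42 and 6.30 in Ptch+/- and at 6.05, 5.76, 5.33 and 5.03 in NdpKO;Ptch+/- arrays. All NdpKO and Ptch+/- arrays lay above WT, the NdpKO;Ptch+/- arrays lay below every Ptch+/- array and partly within the WT range, and the interaction was -2.33 ± 0.39 (SE, adjusted p = 0.0335), against an additive value of 7.88.

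Chrnb2, a subunit of neuronal nicotinic acetylcholine receptors, was at 4.86 to 5.61 in WT, 5.62 to 6.85 in NdpKO, 6.69 to 6.76 in Ptch+/- and 5.14 to 6.01 in NdpKO;Ptch+/- arrays. Its Ptch+/- arrays stood above all 4 NdpKO;Ptch+/- arrays, and the interaction was -2.23 ± 0.34 (adjusted p = 0.0262). A second Chrnb2 probe at or above level 5 gave -1.21 and was not called. Grin2b, the GluN2B subunit of the NMDA receptor, was at 6.17 to 6.44 in WT, 6.96 to 7.86 in NdpKO, 7.28 to 7.74 in Ptch+/- and 6.55 to 7.42 in NdpKO;Ptch+/- arrays. The last group overlapped both single genotypes and lay above WT, with an interaction of -1.58 ± 0.31 (adjusted p = 0.0481).

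Other genes named in this direction were Cadm3, a neuronal adhesion molecule (-1.95 ± 0.37, adjusted p = 0.0476), Kcnk2, a background potassium channel (-1.48 ± 0.26, adjusted p = 0.0398), and Nuak1, a kinase that acts in axon branching (-1.57 ± 0.31, adjusted p = 0.0481, with a second probe called at -0.47). Zbtb18 encodes a transcriptional repressor needed for cortical and cerebellar neurons to form. It was at 8.02 to 8.29 in WT, 8.53 to 9.18 in NdpKO, 9.12 to 9.35 in Ptch+/- and 8.23 to 8.95 in NdpKO;Ptch+/- arrays, with an interaction of -1.54 ± 0.22 (adjusted p = 0.0175). Of its 4 probes at or above level 5, 2 were called, and all 4 had negative values (-1.54 to -0.53). For Celf4, which encodes a neuronal RNA-binding protein, the called probe gave -2.08 ± 0.41 (adjusted p = 0.0489), and its brighter probes gave -0.90 and -0.86 without passing the threshold.

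The remaining named genes of this direction were Smco4 (-2.02), D430041D05Rik (-1.99), Nfatc4 (-1.86), Adamts18 (-1.86), Tmtc2 (-1.62), Gtpbp1 (-1.62) and Selenot (-1.52). Nfatc4 is a transcription factor controlled by calcineurin, and Adamts18 a secreted metalloprotease. For Gtpbp1 and Selenot the call rested on a dim probe. The brighter Gtpbp1 probe gave -0.12, and the other Selenot probes gave 0.14, 0.12 and -0.47. The second D430041D05Rik probe gave -0.62 and was not called. Among all probes at or above level 5 the smallest p-values of this direction belonged to Coa3, a cytochrome oxidase assembly factor (-0.50 ± 0.05, adjusted p = 0.00436, with a second probe at -0.44 not called), and to Fbxl15 and Slitrk1, as seen after the values were known. Slitrk1, a neurite adhesion protein, was at 7.76 to 8.04 in WT, 8.30 to 8.80 in NdpKO, 8.76 to 8.97 in Ptch+/- and 7.95 to 8.31 in NdpKO;Ptch+/- arrays (-1.29 ± 0.16).

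**Figure D3:**
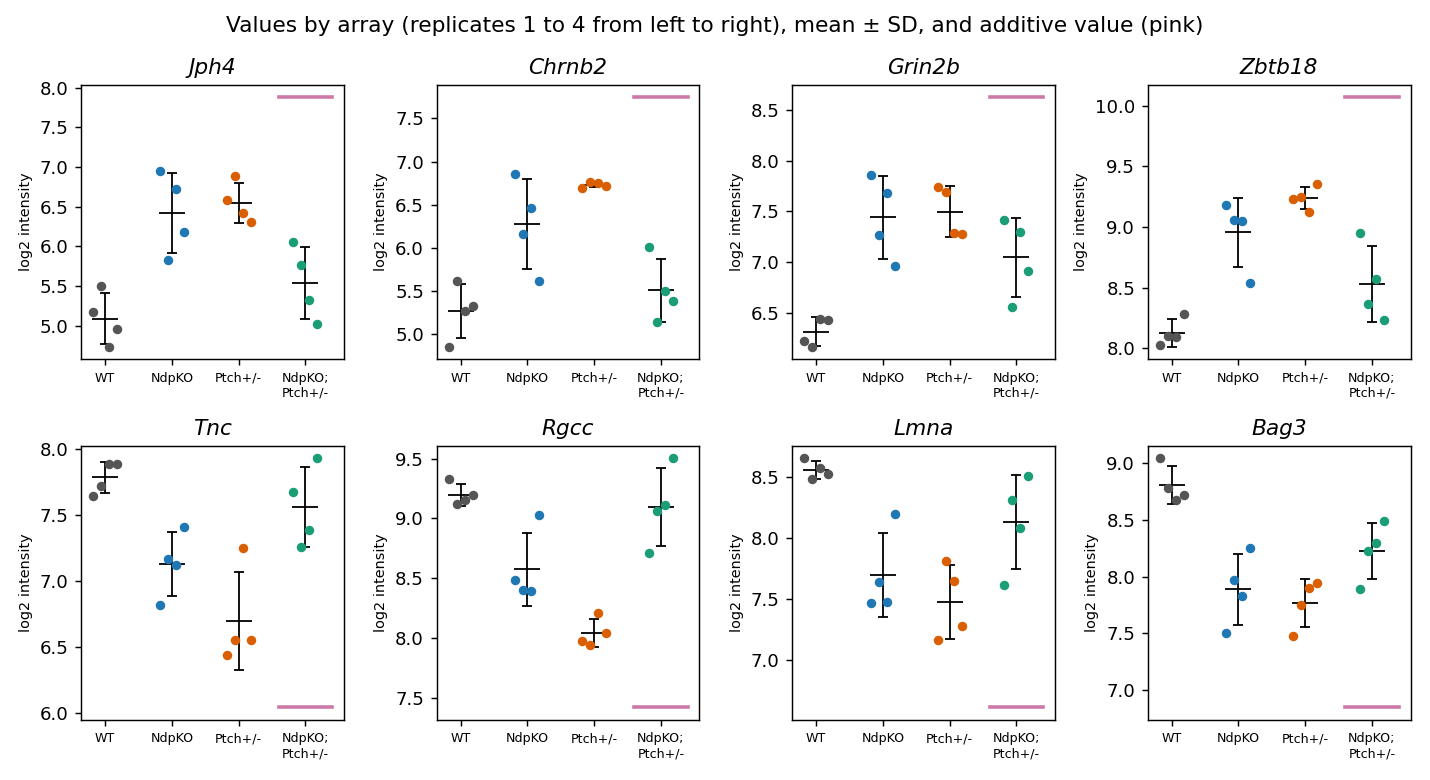
Log2 intensity of 8 named genes on each array, with replicates 1 to 4 from left to right, the mean ± SD of n = 4 arrays (black), and the additive value for NdpKO;Ptch+/- (pink line). In the upper row the NdpKO;Ptch+/- arrays lie below the line, and in the lower row above it.

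Among the genes above the additive value, Tnc encodes tenascin-C, a matrix protein made by astrocytes and Bergmann glia. It was at 7.65, 7.73, 7.89 and 7.89 in WT, at 6.82, 7.17, 7.12 and 7.41 in NdpKO, at 6.44, 6.55, 7.25 and 6.55 in Ptch+/- and at 7.68, 7.26, 7.39 and 7.93 in NdpKO;Ptch+/- arrays. All single-genotype arrays lay below WT and every NdpKO;Ptch+/- array lay above every Ptch+/- array. The interaction was 1.52 ± 0.27 (adjusted p = 0.0398), and a second Tnc probe gave 2.10 without passing the threshold.

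Rgcc, a regulator of cell cycle progression, was at 9.12 to 9.33 in WT, 8.39 to 9.03 in NdpKO, 7.94 to 8.21 in Ptch+/- and 8.71 to 9.50 in NdpKO;Ptch+/- arrays, with an interaction of 1.67 ± 0.23 (adjusted p = 0.0136). The highest NdpKO value was array 4 and the lowest NdpKO;Ptch+/- value was array 1. Lmna, which encodes lamins A and C, was at 8.48 to 8.65 in WT, 7.47 to 8.20 in NdpKO, 7.17 to 7.81 in Ptch+/- and 7.62 to 8.51 in NdpKO;Ptch+/- arrays. Its interaction was 1.51 ± 0.29 (adjusted p = 0.0476), and its other probe at or above level 5 was also called, at 1.33. Bag3, a co-chaperone of the heat shock response, was at 8.68 to 9.05 in WT and at 7.48 to 8.49 in all other groups (1.38 ± 0.23, adjusted p = 0.0353), so that no array of a mutant genotype reached WT.

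Plk4, the kinase that starts centriole duplication, had the largest value with a symbol (1.94 ± 0.38, adjusted p = 0.0476). It was at 5.83 to 7.20 in WT, 5.75 to 6.63 in NdpKO, 4.82 to 5.20 in Ptch+/- and 6.12 to 6.70 in NdpKO;Ptch+/- arrays, so the Ptch+/- arrays stood below the other 12. Its Ptch+/- mean lay just above level 5, nearest to that limit among called genes. Just outside the limit, Ednrb had a lowest group mean of 4.99 and an interaction of 2.61 that is not described further. Cep152, which recruits Plk4 to the centriole, was also called (1.04 ± 0.19, adjusted p = 0.0423), as were the replication genes Cdt1 (0.64 ± 0.11, adjusted p = 0.0396) and Clspn (0.78 ± 0.13, adjusted p = 0.033). The other Clspn probes gave 0.55 and 0.46 and were not called. Plk4 and Rgcc were named by the rule, and Cep152 and Clspn were picked after their values were seen.

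The other named genes of this direction were Cables1 (1.75), Plat, the tissue plasminogen activator (1.58), Frmd6, an upstream member of the Hippo pathway (1.58), Pdlim4 (1.47), the homeobox gene Irx3 (1.41), Rnase4 (1.36), Lmcd1 (1.33), Nuak2 (1.24) and the metallothionein Mt1 (1.24). A second Lmcd1 probe gave 1.72 and was not called. Ctnnb1, which encodes the beta-catenin through which Norrin acts, was named through a dim probe (1.24 ± 0.25, adjusted p = 0.0495). Its brighter probes gave 0.26 and 0.20, at levels of 11.6 and 10.2 in WT, and were not called, so the call is not shared by the gene's probes. The smallest p-value belonged to Zcchc24 (1.13 ± 0.12, adjusted p = 0.00436), which was at 8.56 to 8.85 in WT, 7.85 to 8.03 in NdpKO, 7.80 to 8.12 in Ptch+/- and 8.21 to 8.47 in NdpKO;Ptch+/- arrays, with both single genotypes below the other groups.

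Gene groups were described with 1 probe per gene, the brightest, beside the median interaction of all described probes, which was -0.04. Calls of list members are to be read against all described probes, of which 0.656% were called higher and 0.881% lower. Granule neuron groups lay below it. Of 23 GNP identity genes on the array 15 were at or above level 5, and their median was -0.46. In 10 of 15 the unadjusted p was below 0.05, against 31.2% of all described probes, and 3 were called lower and 0 higher. The called genes were the zinc-finger factors Zic2 (-0.96 ± 0.14, adjusted p = 0.0221) and Zic4 (-0.76 ± 0.14, adjusted p = 0.0398), and Nfia, a nuclear factor of granule neuron maturation (-0.64 ± 0.11, adjusted p = 0.033). The other Zic4 probes gave -1.02, -0.84 and -0.07 and were not called. Zic2 was at 8.24 to 8.56 in WT, 8.69 to 9.13 in NdpKO, 9.11 to 9.16 in Ptch+/- and 8.49 to 8.86 in NdpKO;Ptch+/- arrays. Neurod1 had the highest value of the group, 0.52, and was not called.

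Of 34 granule neuron differentiation genes on the array 28 were at or above level 5, with 25 negative values, 2 called lower (Grin2b and the axonal adhesion gene Cntn2, at -0.46 ± 0.09, adjusted p = 0.0476) and a median of -0.47. In 20 of 28 the unadjusted p was below 0.05, against 31.2% of all described probes. Slc17a7, the vesicular glutamate transporter, had the lowest value, -2.25 ± 0.52, and was not called (adjusted p = 0.0742). Synaptic vesicle genes had a median of -0.29 with 0 of 23 called and 11 of 23 at an unadjusted p below 0.05, against 31.2% of all described probes. All 7 ion channel genes had negative values (-0.66 to -0.09), and 0 were called, with 3 of 7 at an unadjusted p below 0.05, a share near the 31.2% of all described probes. Axon guidance genes had 2 of 22 called lower, Cntn2 and the ephrin receptor Epha3 (-1.08 ± 0.21, adjusted p = 0.0476), and a median of -0.17. Of these 22, 7 had an unadjusted p below 0.05, near the 31.2% of all described probes.

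**Figure D4:**
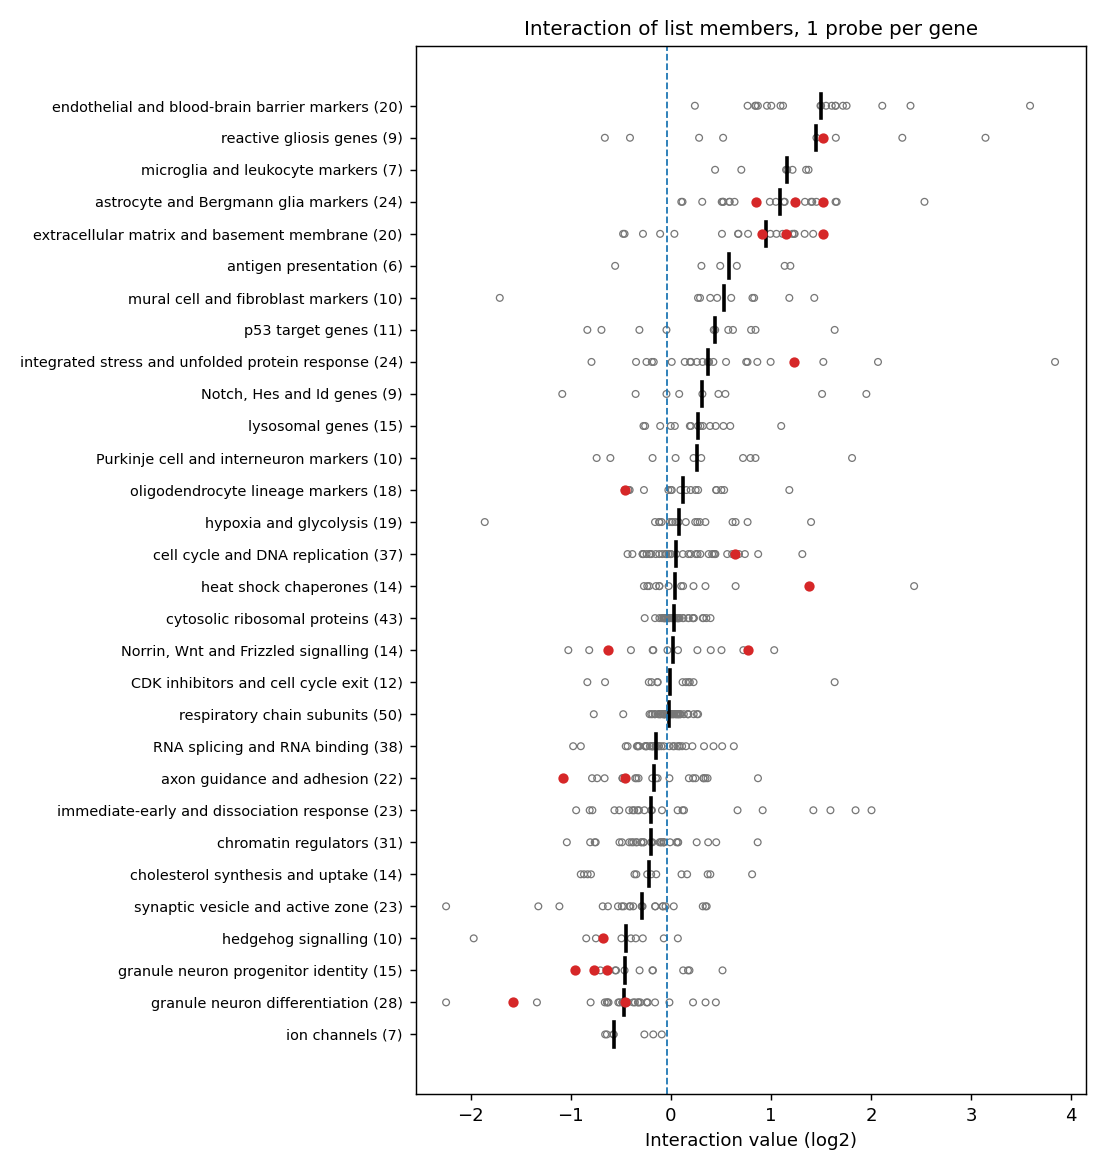
Interaction value of each list member at or above level 5 in all groups (circles, red where called), with list medians (black bars) and the median of all described probes (dashed line, -0.04). Numbers in brackets are members shown. Endothelial and glial lists lie to the right and granule neuron and hedgehog lists to the left.

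Hedgehog genes had mostly negative values, as granule neuron genes did. Of 19 on the array 10 were at or above level 5, 9 had negative values and the median was -0.45. In 4 of 10 the unadjusted p was below 0.05, near the 31.2% of all described probes, and 1 was called lower. This was Ccnd2, the cyclin that hedgehog induces in GNPs, at 11.89 to 12.06 in WT, 12.33 to 12.47 in NdpKO, 12.41 to 12.60 in Ptch+/- and 12.12 to 12.53 in NdpKO;Ptch+/- arrays. All NdpKO and Ptch+/- arrays lay above WT, and the interaction was -0.68 ± 0.11 (adjusted p = 0.033). The other Ccnd2 probes were not called and disagreed in sign, one at -0.71 ± 0.18 (adjusted p = 0.104) and a dimmer one at 0.83 ± 0.21 (adjusted p = 0.0987). Sufu, an intracellular inhibitor of the pathway, gave -1.97 ± 0.46 (adjusted p = 0.0787) at levels of 4.37 to 7.16. Gli2, a transcription factor of the pathway, gave -0.85 ± 0.28 (adjusted p = 0.184). The signal transducer Smo gave -0.75 ± 0.35 (adjusted p = 0.374) and Ccnd1 -0.49 ± 0.26 (adjusted p = 0.449), and none of these 4 was called. The Mycn probe lay at background.

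Norrin, Wnt and Frizzled genes went both ways, with 7 positive and 7 negative values among 14 and a median of 0.02 that changed sign in 4 of 26 alternatives. In 7 of 14 the unadjusted p was below 0.05, against 31.2% of all described probes, and 2 were called. Dkk3, a secreted member of the Dickkopf family, was called higher (0.77 ± 0.14, adjusted p = 0.0423, with a second probe at 0.56 not called) and Porcn, the enzyme that lipidates Wnt ligands, lower (-0.63 ± 0.12, adjusted p = 0.0481). The Norrin co-receptor gene Tspan12 gave 0.40 and the beta-catenin target Axin2 0.51, and neither was called.

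The endothelial list had positive values throughout and no calls. Of 38 endothelial and blood-brain barrier genes on the array 20 were at or above level 5. All 20 had positive values (0.24 to 3.59), with a median of 1.50, 0 called by limma and 14 of 20 at an unadjusted p below 0.05, against 31.2% of all described probes. Angpt2, the antagonist ligand of the Tie2 receptor, was at 7.69, 7.39, 7.67 and 7.70 in WT, at 5.29, 5.22, 4.61 and 7.89 in NdpKO, at 5.69, 5.35, 5.29 and 5.82 in Ptch+/- and at 5.28, 7.96, 7.48 and 8.35 in NdpKO;Ptch+/- arrays. NdpKO array 4 and NdpKO;Ptch+/- array 1, which lay opposite their groups in the first component, each lay with another group, and the interaction was 3.59 ± 0.98 (adjusted p = 0.118).

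The junction protein gene Pecam1 gave 2.39 ± 0.71 (adjusted p = 0.142), Emcn, a sialomucin of endothelium, 1.55 ± 0.56 (adjusted p = 0.234) and Cldn5, the claudin of the blood-brain barrier, 0.85 ± 0.42 (adjusted p = 0.409). Plvap, a component of vessel fenestrae, had WT and Ptch+/- means below level 5 (4.68 and 4.56, against 5.65 in NdpKO and 6.95 in NdpKO;Ptch+/-) and so falls outside the description, as does Esm1, at background.

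Astrocyte and Bergmann glia markers had 24 of 37 members at or above level 5, all with positive values and a median of 1.09. In 20 of 24 the unadjusted p was below 0.05, against 31.2% of all described probes, and 3 were called higher. These were Tnc, Mt1 and Sox9, a transcription factor of glia and of neural stem cells, for which both probes were called (0.85 ± 0.17, adjusted p = 0.0481, and 0.92 ± 0.17, adjusted p = 0.0449). The brighter Sox9 probe was at 11.97 to 12.19 in WT, 11.39 to 12.08 in NdpKO, 11.45 to 11.58 in Ptch+/- and 11.82 to 12.17 in NdpKO;Ptch+/- arrays, with Ptch+/- below the compound genotype on every array. Aldh1l1, an astrocyte enzyme, had the highest value, 2.53 ± 0.54, and was not called (adjusted p = 0.0633). Gfap was at 9.21 to 10.65 in WT and at 6.50 to 8.97 in the other groups (1.45 ± 0.57, adjusted p = 0.281).

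Matrix and basement membrane genes had 3 of 20 called higher (Tnc, the laminin gene Lamc1 and the microfibril gene Mfap2) and a median of 0.95. Of these 20, 13 had an unadjusted p below 0.05, against 31.2% of all described probes. A second Lamc1 probe gave 0.78 and was not called. Microglial genes had positive values in 7 of 7 (median 1.16, 0 called, 3 of 7 at an unadjusted p below 0.05, near the 31.2% of all described probes), although 5 of the 6 defining microglial markers lay below level 5. Ttr, the transthyretin of choroid plexus, ranged from 6.31 to 14.15 across arrays and gave the largest interaction of any list member, 5.03 ± 2.14, which was not called (adjusted p = 0.325).

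The summed level of these lists varied both between and within groups, and the groups overlapped in part. The summed linear intensity of the glial list was 38625 to 48901 in WT, 24547 to 35578 in NdpKO, 26765 to 30323 in Ptch+/- and 33012 to 39223 in NdpKO;Ptch+/- arrays. That of the endothelial list was 15012 to 29790, 9185 to 17696, 9166 to 13352 and 10726 to 23374 in the same order, and that of the microglial list 2376 to 4234, 1577 to 1935, 1636 to 2912 and 2090 to 2471. WT held the highest array for each of these lists and the single genotypes the lowest, and the part of these cells in the interaction was not tested. The GNP identity list was at 37763 to 39574 in WT, 40435 to 45245 in NdpKO, 39193 to 42141 in Ptch+/- and 37412 to 40904 in NdpKO;Ptch+/- arrays.

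**Figure D5:**
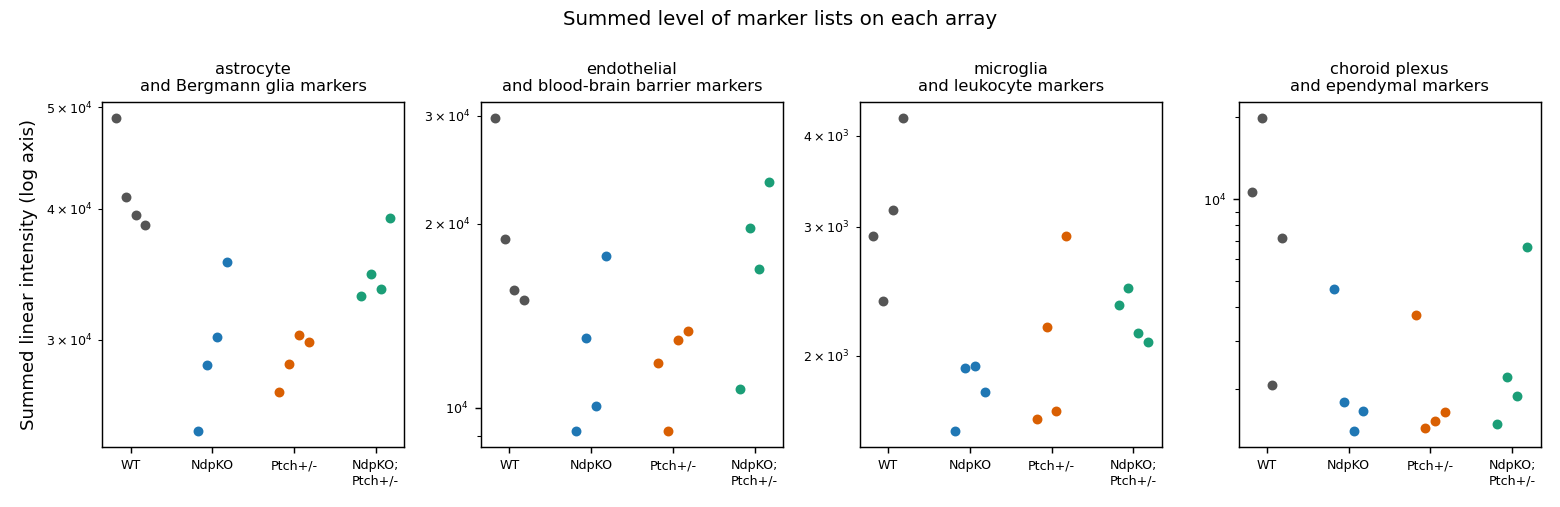
Summed linear intensity of 4 marker lists on each array (points, replicates 1 to 4 from left to right within a group) on a log axis. The highest array for glia is a WT array, and NdpKO array 4 lies above the other NdpKO arrays for glia and endothelium.

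Stress and housekeeping groups had 0 or 1 call each, where 1.54% of all described probes were called. Of 24 integrated stress genes 19 had positive values and 1 was called, Cebpb, a transcription factor of inflammation and differentiation (1.23 ± 0.24, adjusted p = 0.0481, median of the group 0.37). Chac1, a glutathione-degrading enzyme of that response, gave 3.84 ± 1.14 without passing the threshold (adjusted p = 0.144). It was at 9.78 to 11.67 in WT, at 8.56, 7.98, 8.44 and 11.12 in NdpKO, at 7.72 to 8.74 in Ptch+/- and at 8.07, 11.12, 11.02 and 11.29 in NdpKO;Ptch+/- arrays, with the same pair of arrays apart from their groups. Of 14 heat shock chaperone genes only Bag3 was called, and their median of 0.04 changed sign in 4 of 26 alternatives. Hspa1a gave 2.43 ± 0.59 (adjusted p = 0.0875). Of 23 immediate-early and dissociation response genes 0 were called, and their median was -0.20. An unadjusted p below 0.05 was reached by 10 of 23, against 31.2% of all described probes. The summed level of all 31 on the array was 18248 on NdpKO array 4 and 18019 to 18612 on NdpKO;Ptch+/- arrays 2 to 4. It was 20064 to 24891 on the other arrays, including NdpKO;Ptch+/- array 1 (22676), and the cause was not tested.

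Of 37 cell cycle and replication genes 1 was called (Cdt1), with 20 positive values and a median of 0.05. Cdkn1a, the p21 inhibitor of cyclin-dependent kinases, gave 1.64 ± 0.34 (adjusted p = 0.0601). Cytosolic ribosomal proteins (0 of 43 called, 4 at an unadjusted p below 0.05) had a median of 0.03 and respiratory chain subunits (0 of 50 called, 3 at an unadjusted p below 0.05) a median of -0.02, with ranges of -0.26 to 0.40 and -0.77 to 0.27. The medians of these abundant transcripts lay near the additive value.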

How the data were processed

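RNA of each sample was hybridized to an Illumina MouseWG-6 v2 BeadChip. The authors corrected background, normalized by quantiles and took log2 with neqc of limma, and these log2 values were deposited. Every array therefore had the same median, 4.13, and a shift of all probes together cannot be seen. Scan and slide batches are not given in the sources used here. All 18 columns matched a sample, and 0 columns were left without one. Of the 45281 probes 34885 had 1 symbol in the array annotation, 18 several and 10378 none, and 34807 were matched by gene identifier in RefSeq (GRCm38.p6). The authors' filter on probe quality was not applied here.

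The interaction was estimated from the means of the 4 genotypes over 16 arrays, using limma 3.58.1 in R 4.3.3 with empirical Bayes moderation and two-sided tests adjusted over all 45281 probes by the Benjamini-Hochberg method. The p-values treat the 4 arrays of a group as separate animals, as a figure legend of the study states. The number of arrays limits the precision, and the median SE of the interaction was 0.20. Arrays correlated at 0.968 or more within groups, and no pair of arrays held identical values. On simulated data of 45281 probes the procedure recovered 52% of interactions of 1 and 87% of 2 on the log2 scale, with 6 other probes called. The simulation changed 100 probes at each size, so these rates need not hold for the data. There, 31.2% of the described probes had an unadjusted p below 0.05.

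The probes described, the 34 gene lists and the motifs were chosen with earlier results of these data known. Named genes were Ptch1 and Ndp, the 15 highest and 15 lowest called interactions among probes with 1 symbol at or above level 5 (1 probe per gene), members of each list with the lowest and highest values, and 6 vascular and 6 hedgehog genes whatever their values. Alternatives were each array left out, the array with disagreeing labels counted as NdpKO, the replicate number as a block, another level, other scalings, array weights, other moderation, the mean over a gene's probes for lists, and, chosen after seeing the data, omission of both arrays lying opposite their groups in a principal component analysis. That analysis used the 1500 probes that varied most.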

Additional observations from a re-analysis of the deposited data

Results flagged for a closer look

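Among the named genes, 7 of 120 groups of 4 arrays held 1 array whose gap to the nearest other array passed Dixon's 95% critical value, and chance gives about 1 in 20. Cables1 was at 6.58 on NdpKO;Ptch+/- array 1, against 7.20 to 7.30 on the others of its group. Rgcc was at 9.03 on NdpKO array 4, against 8.39 to 8.49 on the others of its group. Tnc was at 7.25 on Ptch+/- array 3, against 6.44 to 6.55 on the others of its group. Nuak2 was at 6.51 on NdpKO array 2, against 6.98 to 7.05 on the others of its group. Mt1 was at 12.13 on WT array 1, against 11.63 to 11.65 on the others of its group. Gtpbp1 was at 6.79 on Ptch+/- array 2, against 6.44 to 6.49 on the others of its group. Nuak1 was at 6.73 on NdpKO array 1, against 6.30 to 6.31 on the others of its group.

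The effect of Ndp loss differed between the WT and Ptch+/- backgrounds, by limma's test of the interaction, in 157 probes at or above level 5. The 30 named genes listed here were taken from these called probes, so their calls follow from that choice. The higher values were Plk4 1.94, Cables1 1.75, Rgcc 1.67, Plat 1.58, Frmd6 1.58, Tnc 1.52, Lmna 1.51, Pdlim4 1.47, Irx3 1.41, Bag3 1.38, Rnase4 1.36, Lmcd1 1.33, Nuak2 1.24, Mt1 1.24 and Ctnnb1 1.24 on the log2 scale. The lower values were Jph4 -2.33, Chrnb2 -2.23, Celf4 -2.08, Smco4 -2.02, D430041D05Rik -1.99, Cadm3 -1.95, Nfatc4 -1.86, Adamts18 -1.86, Tmtc2 -1.62, Gtpbp1 -1.62, Grin2b -1.58, Nuak1 -1.57, Zbtb18 -1.54, Selenot -1.52 and Kcnk2 -1.48. These are the interactions described above, and all 157 lost the call when the array with disagreeing labels was counted as NdpKO. The Prm1 and Ptch1 levels of that array, given above, lay with the arrays titled Ptch and not with the NdpKO arrays.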

How the results depend on the processing

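The number of calls depended strongly on the arrays and on the spread estimate. Leaving out each array in turn gave 26 to 1221 calls over all probes, 12 to 907 at or above level 5, 3 to 461 higher and 9 to 470 lower. The lowest counts came without Ptch+/- array 1, which left 12. In the following, values are calls over all probes, at or above level 5, higher and lower, against 224, 157, 67 and 90 as reported. Counting the array with disagreeing labels as NdpKO gave 2, 0, 0 and 0. Fitting only probes at or above level 5 gave 1224, 1224, 590 and 634, with fewer probes to adjust over. Array weights gave 619, 462, 215 and 247, trend and robust moderation 795, 551, 289 and 262, and no moderation 41, 21, 5 and 16. Leaving out NdpKO array 4 and NdpKO;Ptch+/- array 1 together, chosen after seeing the data, gave 2577, 1851, 891 and 960. The cause of these changes was not tested. A replicate block gave 72, 48, 18 and 30, with 37 of the 48 shared. The replicate numbers did not pair the arrays, since same-numbered arrays deviated together with a median correlation of -0.047 over 24 pairs (-0.35 to 0.49) and 4 of 16 arrays correlated best with their own number. Level 6, centring on bright probes and quantile normalization of the GNP arrays alone moved each count by less than 1.5 times. All 30 named interactions kept their sign in these alternatives, which their choice by size favours, but most lost the call in many of them. Of the 30, 28 lost it without Ptch+/- array 1 and without NdpKO;Ptch+/- array 2, 21 under the replicate block, 25 without moderation and 30 when the array whose labels disagree was moved to NdpKO, and single omissions of other arrays took away 0 to 27. The medians near 0 of the Norrin and Wnt, heat shock, CDK inhibitor, oligodendrocyte and respiratory chain lists changed sign in some. Signal near background limits genes below level 5, for which no interaction is described.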
